A study of Mus musculus with 6 samples.

Results

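The vascular endothelial growth factor (VEGF) family was followed in mouse embryonic fibroblasts in which the ubiquitin-conjugating enzyme gene Ube2o had been knocked down. The 10 genes were the ligands Vegfa, Vegfb, Vegfc, Vegfd (Figf in older annotation) and Pgf, the receptor tyrosine kinases Flt1, Kdr and Flt4, and the neuropilin co-receptors Nrp1 and Nrp2. They were chosen by gene symbol, with no threshold on a measured value, and all 10 were measured, by 23 of the 45281 probes and among 20289 genes in all. Each gene is described by its brightest probe over the 6 arrays, with its other probes as a check. The fibroblasts were of the C57BL6 strain, from embryos at day 13.5, and stably expressed an shRNA against GFP (the control, 3 arrays) or an shRNA against Ube2o (3 arrays). The cultures of both groups thus carried an shRNA, and the columns of the second group name 1 hairpin against Ube2o, so a second hairpin was not compared. RNA was hybridised to single-colour Illumina arrays, which report a probe's brightness as an intensity. The submitters ask which genes and pathways respond to the loss of UBE2O.

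VEGF ligands are secreted dimers that bind receptor tyrosine kinases, mostly on endothelial cells, and drive the growth and leakiness of blood and lymphatic vessels. VEGF-A signals chiefly through the receptor encoded by Kdr, while the receptor encoded by Flt1 binds VEGF-A, VEGF-B and placental growth factor tightly and in its soluble form acts as a trap for them. VEGF-C and VEGF-D act on the receptor encoded by Flt4 and promote lymphatic growth, and neuropilins present several ligands to the kinases and also serve as receptors for class 3 semaphorins. Fibroblasts are known as a source of the ligands rather than as responding cells.

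The targeted gene, Ube2o, had a log2 change of -1.45 (limma adjusted p = 3.15e-07), with no overlap between groups. The median deposited intensity of an array lay between 153 and 173.6, lowest on the array of Ube2o shRNA replicate 1, so deposited intensities are given beside values normalized between arrays. Background was inferred from the dim probes of each array, and 43.1% to 44.9% of probes exceeded it. All 10 fibroblast markers lay above background on every array. Of 15 endothelial markers, 2 (Egfl7 and Ramp2) did so and 7 on no array, among them Cdh5, Vwf and Cldn5. In limma 0 fibroblast, lymphatic or epithelial markers passed (3, 1 and 1 at an unadjusted p under 0.05). Of 9 pericyte and smooth muscle markers 1 rose (Tagln, list median log2 change -0.030). Of 4 neural markers Map2 and Nes rose, where 2.91% of all genes were called higher. Sox2 and Tubb3 did not pass (0.14 and -0.14), and Tubb3 lay above background on 0 arrays. The summed normalized intensity of the 4 neural markers, of which Map2 was the brightest, was 772 to 834 in the controls and 1119 to 1241 with Ube2o shRNA. Precision is limited by the small number of arrays. In bulk RNA, fewer cells of a type and less RNA per cell cannot be told apart.

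With Ube2o shRNA, Vegfa and Flt1 fell and Vegfb rose, and the other 7 genes did not pass the threshold, an adjusted p of 0.05 over all probes. These 3 calls among 10 genes stand beside 6.86% of all genes called in either direction, 3.95% lower and 2.91% higher. All 3 called genes lay above background on all 6 arrays. Of all genes that did so, 13.0% were called, 7.13% lower and 5.89% higher. The groups did not overlap for 6 of the 10 genes, 4 lower (Vegfa, Vegfd, Flt1 and Nrp1) and 2 higher (Vegfb and Vegfc), where 25.6% of all genes did not overlap, 12.9% lower and 12.7% higher. The median log2 change of the 10 genes was 0.027, beside 0.0027 over all genes. Of the 10 genes, 7 lay above background on all 6 arrays. The other 3 were Pgf, Kdr and Flt4.

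**Figure D1:**
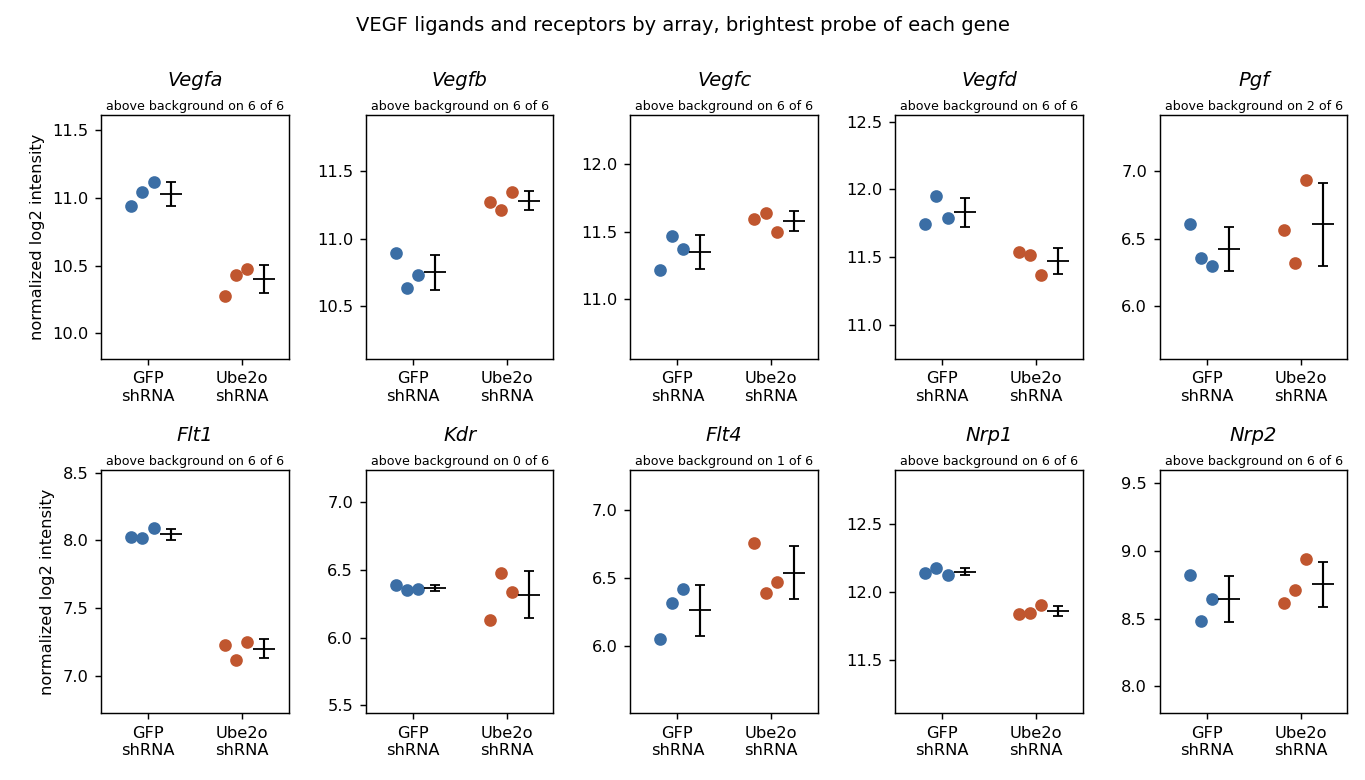
Normalized log2 intensity (y axis) of the brightest probe of each of the 10 genes on the 3 GFP shRNA arrays (blue) and the 3 Ube2o shRNA arrays (orange), with the group mean and SD (black); every panel spans the same log2 range around its own centre, and the line above each panel says on how many arrays the probe lay above background. The orange points lie wholly below the blue ones for Vegfa, Vegfd, Flt1 and Nrp1 and wholly above them for Vegfb and Vegfc.

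Among the ligands, Vegfa, the main driver of blood vessel growth, gave deposited intensities of 1957, 2253 and 2533.5 in the controls, against 1113.5, 1594 and 1426 with Ube2o shRNA. Every Ube2o shRNA value was under the lowest control. The normalized log2 intensity was 11.03 ± 0.089 (SD, n = 3) in the controls and 10.40 ± 0.105 (SD, n = 3) with Ube2o shRNA, so Vegfa fell (log2 change -0.64, SE 0.11, 1.56-fold, limma adjusted p = 0.00224). Ordered from the most negative change, Vegfa stood at place 347 of 20289 genes. A second, dimmer probe of Vegfa, also above background on all arrays, gave 445, 522 and 536 in the controls and 340.5, 454 and 367.5 with Ube2o shRNA. Its log2 change was -0.35 (SE 0.11) and did not pass (adjusted p = 0.0911), although its normalized values did not overlap between groups either. The third probe lay above background on 0 arrays, with a log2 change of 0.094. Without any 1 array the change of the brightest probe lay between -0.69 and -0.57 and passed each time. It did not pass with the background offset of 16 (-0.65, adjusted p = 0.0701) or with the probes averaged (-0.30, adjusted p = 0.0921).

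Vegfb, whose product binds Flt1 and Nrp1 and is known from heart and muscle, moved the opposite way. Its 1 probe gave 1897, 1728 and 1979 in the controls and 2156, 2664 and 2561 with Ube2o shRNA, so that every array of the second group lay above the first. The normalized log2 intensity was 10.75 ± 0.129 (SD, n = 3) and 11.28 ± 0.069 (SD, n = 3), a rise (log2 change 0.52, SE 0.12, 1.44-fold, limma adjusted p = 0.0109). Vegfb lies on chromosome 19, where 12.3% of 692 genes were called higher and the median log2 change was 0.085. With that median subtracted the change of Vegfb was 0.44 (adjusted p = 0.0368). The call was lost without replicate 2 of GFP shRNA (0.47, adjusted p = 0.06) or replicate 3 of Ube2o shRNA (0.49, adjusted p = 0.0541), and with the offset of 16 (0.53, adjusted p = 0.123).

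The promoters of these oppositely moving ligands are shown for what their sequences hold, as RefSeq gives them for GRCm38.p6. Each is the stretch of 250 bases just before the outermost annotated start, read 5′ to 3′ on the minus strand, at chr17:46032378-46032627 for Vegfa and chr19:6987652-6987901 for Vegfb. Capitals mark GC boxes, the word GGGCGG on either strand, which SP1 and related factors are known to bind.
Vegfa: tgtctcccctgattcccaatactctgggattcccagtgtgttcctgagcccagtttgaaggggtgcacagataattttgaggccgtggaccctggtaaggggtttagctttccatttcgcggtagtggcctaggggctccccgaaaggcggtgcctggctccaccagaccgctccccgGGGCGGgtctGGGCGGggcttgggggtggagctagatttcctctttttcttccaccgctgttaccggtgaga
Vegfb: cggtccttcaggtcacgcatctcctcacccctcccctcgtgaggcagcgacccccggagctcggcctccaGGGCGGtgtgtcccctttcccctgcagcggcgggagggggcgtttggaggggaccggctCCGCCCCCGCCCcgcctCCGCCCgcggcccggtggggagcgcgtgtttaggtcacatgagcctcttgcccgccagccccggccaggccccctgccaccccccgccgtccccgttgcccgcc
The Vegfa stretch holds 2 GC boxes and that of Vegfb 4, and 32.7% of 32851 promoter windows of this length hold at least 1. The hypoxia response core ACGTG, to which hypoxia-inducible factors bind, was in neither stretch and in 16.6% of all windows. Bases farther upstream were not searched, so a site there would not be seen. The variant core GCGTG was in the Vegfb stretch at 2 places, not in that of Vegfa, and in 28.2% of all windows. A second annotated start of Vegfa had 1 copy each of the core, its variant and the GC box in its window.

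The other ligands did not pass. Vegfc gave 2385.5, 2967 and 3004.5 in the controls and 2685, 3566 and 2830.4 with Ube2o shRNA, for a log2 change of 0.22 (SE 0.12, 95% interval -0.020 to 0.47, adjusted p = 0.359). Vegfd gave 3486, 4059 and 3953 in the controls and 2572, 3289 and 2591.5 with Ube2o shRNA, for a log2 change of -0.35 (SE 0.12, 95% interval -0.60 to -0.11, adjusted p = 0.0947). After normalization neither gene's groups overlapped, though the deposited intensities of Vegfc did. Vegfd lies on the X chromosome, where 9.98% of 802 genes were called lower and the median log2 change was -0.034, and its change was -0.32 (adjusted p = 0.149) with that median subtracted. Vegfd passed in 5 of 17 other ways of processing, among them no background correction (adjusted p = 0.00651) and the series matrix values (adjusted p = 0.00811). Pgf, which encodes placental growth factor, lay above background on 1 array of each group (deposited intensities from 156.4 to 198.3), too dim for a fold. It lies on chromosome 12, where 15.3% of genes were called higher.

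Pairs of related members were also compared within each array, after their values had been seen, as the change of the log2 ratio of 2 probes. The Vegfa to Vegfb log2 ratio was 0.28 ± 0.202 (SD, n = 3) in the controls and -0.88 ± 0.109 (SD, n = 3) with Ube2o shRNA, a change of -1.16 (SE 0.13). For the lymphatic ligands, neither of which passed alone, the change of the Vegfd to Vegfc log2 ratio was -0.58 (SE 0.041). The Nrp1 to Nrp2 log2 ratio changed by -0.39 (SE 0.13). In each of these 3 pairs the groups did not overlap. For Vegfa with Vegfb and Vegfd with Vegfc this had to follow, since each gene's groups already lay apart, in opposite directions. The groups of Nrp1 lay apart as well, though those of Nrp2 overlapped. Since the pairs were picked with these values in view, the separation of the 3 ratios and their permutation value below add no separate support. With 3 arrays against 3 a two-sided exact permutation test cannot go below 0.1, which was its value for each pair and also after Benjamini-Hochberg adjustment.

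Of the receptor kinases, Flt1 was the one above background. The probe gave 329, 346 and 379 in the controls and, lower without overlap, 200.8, 226 and 227 with Ube2o shRNA. The normalized log2 intensity was 8.05 ± 0.040 (SD, n = 3) and 7.199 ± 0.070 (SD, n = 3), so Flt1 fell (log2 change -0.85, SE 0.11, 1.80-fold, limma adjusted p = 0.000102). It passed in 16 of 17 other ways of processing, with changes from -1.03 to -0.42. The exception was the mean of its probes (-0.42, adjusted p = 0.0588), since its second probe lay above background on 0 arrays and had a log2 change of -0.00061. Which transcript form of Flt1, membrane-bound or soluble, the probes read was not examined here.

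Flt1 is known from endothelial cells and macrophages, so markers of both stand here beside its fall. None of the 15 endothelial markers passed in limma, with 2 at an unadjusted p under 0.05. The summed normalized intensity of the 15 was 1361 to 1378 in the controls and 1368 to 1420 with Ube2o shRNA. Of the 15, 2 lay above background on every array and 7 on none, so much of this sum is signal near background. Of 10 macrophage and leukocyte markers, 3 fell (Cd74, Aif1 and Cd14) and 0 rose, beside 3.95% and 2.91% of all genes. The summed normalized intensity of the 10 was 2197 to 2514 in the controls and 1505 to 1532 with Ube2o shRNA. Without Cd74, whose log2 change was -2.17, the sum was 1602 to 1806 in the controls and 1361 to 1388 with Ube2o shRNA, and Lyz2 and Csf1r did not pass (-0.19 and 0.028). Of these 10 markers, Ptprc, Adgre1, Cd68, Fcer1g and Tyrobp lay above background on 0 arrays. The part of macrophages in the falls of Flt1, Vegfa and Mmp9 was not tested.

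A stretch before an annotated start of Flt1 is shown for the cAMP response element (TGACGTCA, in capitals) that a search of the 250 bases before it found, a word present in 1.55% of all promoter windows and in none of the other members' windows. These 30 bases lie at chr5:147726074-147726103 of GRCm38.p6 on the minus strand (RefSeq).
Flt1: gggggacccctTGACGTCActggaaggagg
The same window held a TATA word (TATAAA) beginning 31 bases before the start and 3 GC boxes. A match of letters is a description of the window and says nothing of use in these cells.

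Kdr, which encodes the main signalling receptor for VEGF-A, was not detected above background. Its brighter probe gave deposited intensities from 136.1 to 171.6 over the 6 arrays, and both of its probes lay above background on 0 arrays. Flt4, the receptor for VEGF-C and VEGF-D, lay above background on 1 Ube2o shRNA array and 0 control arrays by its brightest probe (145.1 to 168.9), and its 3 probes had log2 changes of 0.28, -0.0052 and -0.13. No fold is given for these 2 genes, and a level near background does not show that the transcript was absent.

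The co-receptor gene Nrp1 was measured by 2 bright probes, neither of which passed. The first gave 4564.5, 4714 and 4951 in the controls and 3150.3, 4090.0 and 3711 with Ube2o shRNA, for a log2 change of -0.29 (SE 0.11, 95% interval -0.52 to -0.058, adjusted p = 0.167). The second gave 3797, 4691.5 and 5385 in the controls and 2963, 3746 and 3225 with Ube2o shRNA, for a log2 change of -0.39 (SE 0.12, 95% interval -0.64 to -0.13, adjusted p = 0.0831). For both probes the groups lay apart, the Ube2o shRNA arrays lower. The brightest probe passed in 5 of 17 other ways of processing and the second in 8 of 16, lower each time. Nrp2 overlapped between groups, with 505, 449.8 and 524 in the controls and 401, 535 and 549.6 with Ube2o shRNA, for a log2 change of 0.11 (SE 0.13, 95% interval -0.16 to 0.37, adjusted p = 0.766). None of its 7 probes passed in limma, and 0 had an unadjusted p under 0.05.

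Over the 23 probes of the 10 genes, 2 were called lower and 1 higher, beside 2.69% and 2.25% of all probes (4.94% in all).

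**Figure D2:**
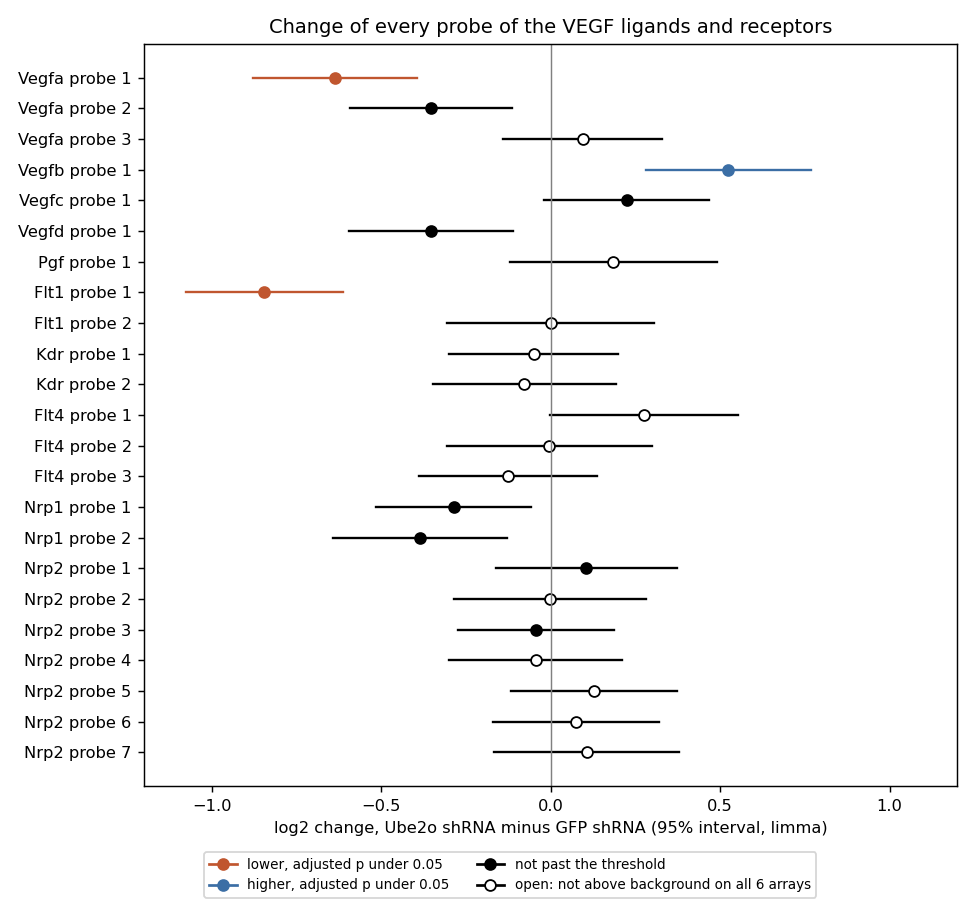
Log2 change, Ube2o shRNA minus GFP shRNA, with its 95% interval from limma (x axis, n = 3 arrays per group) for all 23 probes of the 10 genes, ordered within a gene from the brightest probe; open points are probes not above background on all 6 arrays. The called probes are the brightest of Vegfa and Flt1, both lower, and the probe of Vegfb, higher, while both probes of Nrp1 have intervals below 0.

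**Figure D3:**
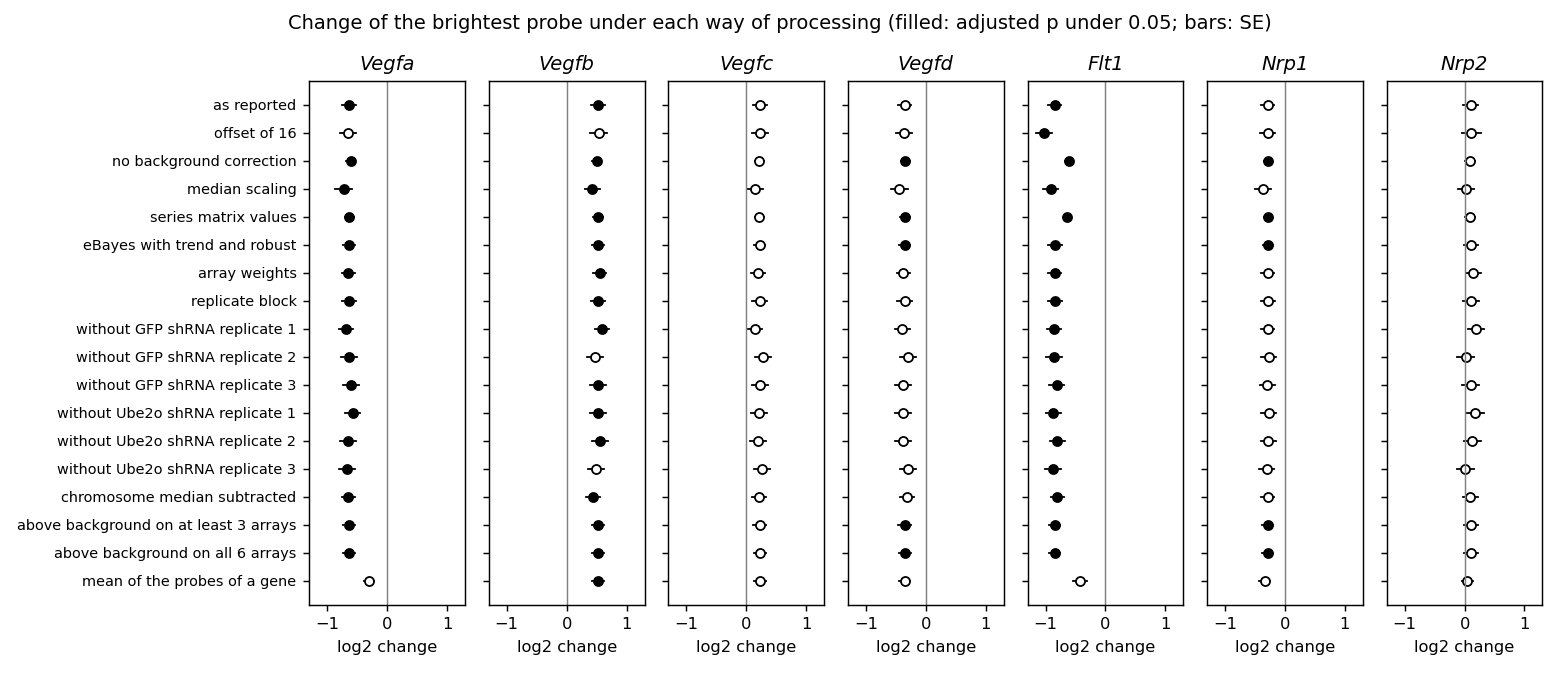
Log2 change of the 7 genes above background on all arrays (x axis, bars give the SE) under each way of processing (rows), filled where the adjusted p was under 0.05. Vegfa and Flt1 stay below 0 and Vegfb above 0 in every row, and the rows differ in whether Vegfa, Vegfb, Vegfd, Flt1 and Nrp1 pass.

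The genes whose values over the 6 arrays were most like those of Vegfa were Rchy1, Ptx3, Otx1, Aifm1 and Pak3, with Pearson correlations of 0.995 to 0.998 among 9329 genes above background. The arrays fall into the study's groups, so this likeness follows the difference between groups and is given as a description only. Of these genes Ptx3, which encodes the long pentraxin 3, had a log2 change of -0.64 (limma adjusted p = 0.00213). Aifm1 and Pak3 passed as well (-0.59 and -0.71, limma adjusted p = 0.00507 and 0.00115), and Rchy1 and Otx1 did not pass (-0.31 and -0.32).

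Beyond the family itself, 8 lists of the surrounding pathway held 136 measured genes, of which 10 fell and 4 rose (10.3%, beside 6.86% of all genes). Of the 91 among them above background on all 6 arrays, 15.4% were called, beside 13.0% of all such genes. Among class 3 semaphorins and plexins, which share the neuropilins with VEGF, 3 of 11 genes fell and 0 rose, with a median log2 change of -0.077. Over all genes 3.95% fell and 2.91% rose, and of those above background on all 6 arrays 7.13% fell and 5.89% rose. Sema3c, a ligand of both neuropilins, gave 892, 1109 and 1087 in the controls and 285, 435.0 and 376.5 with Ube2o shRNA, and fell (log2 change -1.64, SE 0.12, n = 3 against 3, 3.11-fold). Sema3f, a ligand chiefly of neuropilin-2, gave 1483.5, 1613 and 1721 in the controls and 676, 895 and 776 with Ube2o shRNA, and fell (log2 change -0.999, SE 0.11, 2.00-fold). The groups lay apart for both genes, which were named because they passed, and for 25.6% of all genes. A second probe of each passed as well, with log2 changes of -1.39 for Sema3c and -0.9956 for Sema3f. Another probe of Sema3f, above background on 0 arrays, had a log2 change of -0.059. Plxnd1, a plexin of vessels and neurons, fell by 0.47 (adjusted p = 0.0194), and no longer passed when any 1 array other than Ube2o shRNA replicate 1 was left out (adjusted p from 0.0556 to 0.0842), with the offset of 16 (0.141) or with the probes averaged (-0.36, adjusted p = 0.0518). Sema3a, a ligand of neuropilin-1, had a log2 change of 0.39 and did not pass (adjusted p = 0.0515).

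Of 16 genes of matrix proteins and proteases that bind or release VEGF, 3 fell and 1 rose, with a median log2 change of -0.016. All 16 lay above background on every array, as did 9330 genes in all, of which 7.13% fell and 5.89% rose. Gpc1, which encodes the heparan sulfate proteoglycan glypican-1, gave 2789, 2909.8 and 3368 in the controls and 904, 1329 and 1152.5 with Ube2o shRNA, and fell (log2 change -1.38, SE 0.11, 2.61-fold). The matrix protease gene Mmp9 fell by 0.87 and Thbs2, which encodes the angiogenesis inhibitor thrombospondin-2, by 0.55, while Ccn2, whose product binds VEGF-A, rose by 0.56. For all 4 genes, named because they passed, the groups did not overlap, which held for 25.6% of all genes. The call of both Thbs2 and Ccn2 was lost with the offset of 16 (adjusted p = 0.101 and 0.0922). A second probe of Ccn2, above background on every array, passed too (log2 change 0.56, limma adjusted p = 0.00616).

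Of 35 genes of receptor signalling, 1 rose and 1 fell, with 8 at an unadjusted p under 0.05 and a median log2 change of 0.065; over all genes 2.91% rose and 3.95% fell. Mapkapk2, a kinase downstream of p38, rose by 0.70 (SE 0.12, adjusted p = 0.00164), and Pik3r1, the regulatory subunit of phosphoinositide 3-kinase, fell by 0.86 (SE 0.16, adjusted p = 0.0027). A second probe of Pik3r1 passed too (-0.79), and 2 probes near background did not (-0.077 and 0.052). The call of Pik3r1 was lost with the offset of 16 (adjusted p = 0.105) and with the probes averaged (-0.42, adjusted p = 0.0827), and that of Mapkapk2 with the offset of 16 (adjusted p = 0.0665). Of the 8 measured early VEGF-induced genes, known from endothelial cells, Egr3 rose by 0.50 (SE 0.12, adjusted p = 0.0179) and 7 did not pass. A second, dim probe of Egr3 gave a log2 change of -0.12. The call of Egr3 was lost without GFP shRNA replicate 2 (adjusted p = 0.0993) or Ube2o shRNA replicate 1 or 2 (adjusted p = 0.0685 and 0.0645), and with median scaling (0.0603), the offset of 16 (0.129) and the probes averaged (log2 change 0.19, adjusted p = 0.328).

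Oxygen-sensing genes, which act upstream of Vegfa, held 1 rise and 1 fall among 15, beside 2.91% and 3.95% of all genes. Egln3, a prolyl hydroxylase gene that hypoxia-inducible factors themselves induce, gave 450.1, 486 and 603 in the controls and 604.6, 915.5 and 683 with Ube2o shRNA, and rose (log2 change 0.70, SE 0.12, adjusted p = 0.00204). The groups lay apart, narrowly so in deposited intensity, and 2 dimmer probes of Egln3 did not pass (0.094 and 0.052). The call of Egln3 was lost with the offset of 16 (adjusted p = 0.0701) and with the probes averaged (0.28, adjusted p = 0.15). Egln3 lies on chromosome 12, like Pgf, and had a change of 0.58 (adjusted p = 0.00928) with that chromosome's median subtracted. Esrra, which encodes a nuclear receptor linked to Vegfa transcription, fell by 0.52 (SE 0.13, adjusted p = 0.0193) and did not pass without replicate 1 or 2 of GFP shRNA or replicate 2 or 3 of Ube2o shRNA (adjusted p from 0.0576 to 0.109) or with the offset of 16 (0.16). A second bright Esrra probe missed the threshold (-0.41, adjusted p = 0.109). Hif1a, the oxygen-regulated subunit, had a log2 change of 0.17 (adjusted p = 0.638). Of 19 measured hypoxia-inducible genes other than Vegfa, 0 passed in limma, with 8 at an unadjusted p under 0.05 and a median log2 change of -0.051. The smallest p was that of the glucose transporter gene Slc2a1, with a log2 change of 0.38 (SE 0.11, adjusted p = 0.0603). With no background correction 3 of these genes were higher and 2 lower.

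Among 24 other angiogenic growth factors and receptors, 2 fell and 0 rose, beside 3.95% and 2.91% of all genes, and 7 had an unadjusted p under 0.05. Pdgfb, which recruits pericytes to vessels, gave 295, 325 and 347 in the controls and 174.5, 209.5 and 198.6 with Ube2o shRNA, and fell (log2 change -0.97, SE 0.11, 1.95-fold, adjusted p = 2.13e-05). A second probe of Pdgfb, above background on 0 arrays, had a log2 change of 0.038. With the probes averaged Pdgfb still passed, at -0.46 (limma adjusted p = 0.0244). Pdgfra, a receptor of fibroblasts, fell by 0.76 (SE 0.11, adjusted p = 0.000333), while its dim second probe did not pass (0.10), and the call was lost with the probes averaged (adjusted p = 0.07). None of the 8 measured genes of VEGF-C and VEGF-D processing passed in limma, with 1 at an unadjusted p under 0.05. This was Furin, a convertase that cleaves both ligands (log2 change 0.32, SE 0.12, adjusted p = 0.149), and Ccbe1 and Adamts3, which act together on VEGF-C, lay above background on 0 arrays.

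**Figure D4:**
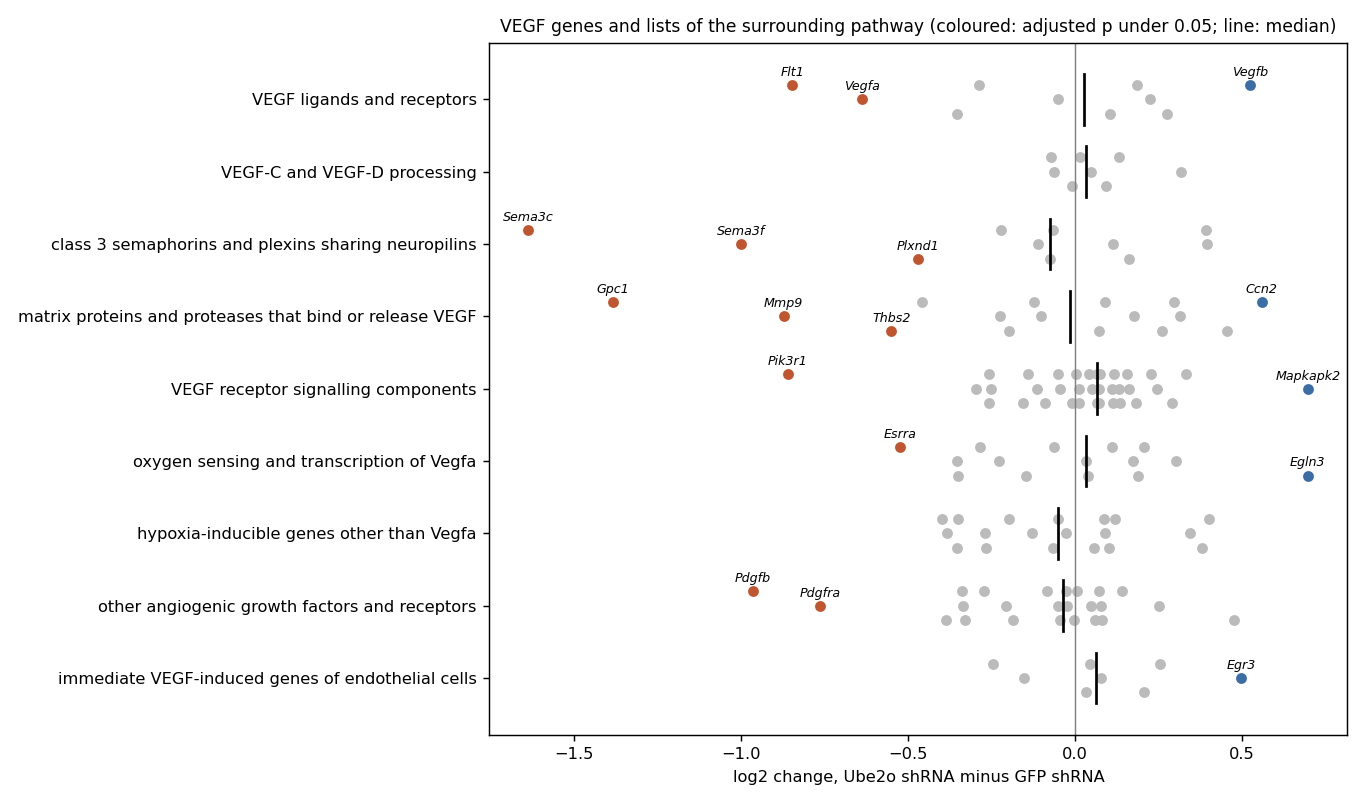
Log2 change, Ube2o shRNA minus GFP shRNA (x axis), of the brightest probe of each measured gene in the VEGF family and the 8 surrounding lists (rows), orange where lower and blue where higher at an adjusted p under 0.05, with the median of each row as a black line. Sema3c and Gpc1 lie farthest to the left, beyond Flt1 and Vegfa, and every median lies close to 0.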

How the data were processed

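Per the labels' protocols, RNA extracted with an RNeasy kit was made into biotinylated cRNA for Illumina arrays. The 6 arrays were grouped by their titles; 1 label of the Ube2o arrays says siRNA where the titles say shRNA. The labels do not say whether replicates came from separate embryos, so a p-value reflects the spread of these arrays alone, part of which may be technical. Linear probe intensity was deposited by the authors, not normalized between arrays, with a series matrix of log2 values that were quantile normalized (sorted values equal within 0.001); for scanner software and background correction, the sources used here give nothing.

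Intensities were corrected with normexp (saddle-point, offset 50), quantile normalized and put on the log2 scale; fold changes are of these values, which include the offset. All 45281 probes were tested two-sided with eBayes of limma 3.58.1 (R 4.3.3), adjusted over all of them by Benjamini-Hochberg, and called at 0.05. The test was checked on simulated data, with changes planted in bright probes only. The planted changes were larger than those called in the family, so changes as small as the family's were not covered. A probe was above background when its p was under 0.05 in a normal curve set from the mode of an array's log2 intensities and the spread below it. Probes were named from the platform annotation, updated through RefSeq (GRCm38.p6). Named were the 10 members, Ube2o, the 5 genes most like Vegfa, and per list up to 4 called genes in order of p, or, with no call, the gene of lowest p. Other genes (Sema3a, Hif1a, Ccbe1, Adamts3 and markers) were picked for the text with their values in view. The members and lists were chosen with earlier results of these data known. Alternatives covered background correction, scaling, the series matrix, moderation, array weights, replicate number, each array left out, probe choice, filters on dim probes and chromosome medians. Deviations of same-numbered arrays of the 2 groups correlated at 0.035, -0.112 and 0.086, so the numbers were not taken to pair the arrays.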

Additional observations from a re-analysis of the deposited data

How the results depend on the processing

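Of the 10 genes, 3 passed as reported. The count was 5 (4 lower, 1 higher) from uncorrected intensities, from the series matrix, with a trended and robust moderation, and with either filter on dim probes, where Vegfd and Nrp1 were lower besides. It was 1 with the offset of 16 (Flt1; 1 lower, 0 higher) and 1 with the probes averaged (Vegfb; 0 lower). Without 1 array 2 to 3 passed, 2 lower each time and 0 to 1 higher. The change of Vegfa was -0.65 with the offset of 16 (adjusted p = 0.0701), -0.30 with the probes averaged (0.0921), -0.35 by its second probe (0.0911) and 0.094 by a probe at background, and it passed in the other 15 of 17 settings (-0.72 with median scaling). With the replicate number as a block, which the labels do not show to be a pairing, Vegfa changed by -0.64 (adjusted p = 0.00291), 3 genes of the family passed and 2139 of all probes did. All probes called were 2236 (1217 lower, 1019 higher) as reported, 584 (405 and 179) with the offset of 16, 3966 (1942 and 2024) uncorrected, 3941 (1930 and 2011) from the series matrix, 3338 (1688 and 1650) with the trended moderation, 3505 (1779 and 1726) and 3679 (1747 and 1932) with the filters on 3 and 6 arrays, and 2111 (1544 and 567) with median scaling, so the direction with more calls changed with the setting. Without 1 array they were 1445 to 1682 (830 to 958 lower, 615 to 731 higher), lowest without GFP shRNA replicate 1. Pathway list genes called were 14 (10 lower, 4 higher) as reported, 6 (6 and 0) with the offset of 16, 32 (19 and 13), 31 (18 and 13) and 29 (17 and 12) from uncorrected intensities, the series matrix and the trended moderation, 28 (18 and 10) and 29 (17 and 12) with the filters, 17 with median scaling, 11 with the probes averaged, and 12 to 13 (8 to 10 lower, 3 to 5 higher) without 1 array. Signs turned for Kdr without Ube2o shRNA replicate 1 (0.042), and for dimmer probes of Flt4 (-0.0052 and -0.13) and of Nrp2 (-0.0019, -0.043 and -0.045). Of these Nrp2 probes the one at -0.043 lay above background on every array. Dim genes such as Flt1 change less with the offset of 50 (-1.03 with the offset of 16). The cause of these differences was not tested. Probes near background (Pgf, Kdr and Flt4) give no change that can be read.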
